A study of Mus musculus with 4 samples.

Results

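The interferon response genes examined here are 31 genes induced by interferons, taken by name from a whole-genome oligonucleotide array of mouse brain. A probe belonged to the set when its gene name was a listed gene or an older or newer symbol of one. The set held 31 of 27670 gene names and 48 of 41174 non-control probes. Irf9 stood on the array as Isgf3g, Irgm1 as Irgm, and Gbp3 under the name Gbp4, from which it was separated by its accession. Of these genes, 23 were grouped as type I members and 8 as gamma-induced members, although many interferon-stimulated genes answer to both kinds of interferon. Genes entered the test if 1 or more of the 4 RNA groups had both its arrays well above background. This held for 30 of the 31 genes and 19127 gene names in all, and Mx1 was the member left out.

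Brain RNA came from male C57BL/6J mice after permanent middle cerebral artery occlusion (PMCAO) or a sham operation, 6 h or 24 h after saline was given into the cerebral ventricle. In PMCAO, a model of ischemic stroke, a nylon filament blocks the artery, while sham surgery stopped at exposing the carotid arteries and suturing the wound. Saline was given in both arms, so every group had the injection, and each group held 3 mice whose RNA was combined in a way the labels do not state. By the design text the arrays carried the contralateral hemisphere, whereas the sample labels give only brain. Each of the 4 arrays carried PMCAO RNA in one dye and sham RNA in the other, with PMCAO in Cy5 on sample 1 and in Cy3 on sample 2 of each time. Whether the 2 samples of a time are separate RNA is not labelled, and the p-values therefore cover the spread between arrays alone, which may be technical. All 4 arrays lay on 1 slide. The share of spots well above background ran from 66.3% to 73.7% for PMCAO RNA and from 67.3% to 73.6% for sham RNA. All 5 listed markers each of neurons, astrocytes and oligodendrocytes passed the background filter.

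Type I interferons (alpha and beta) bind the Ifnar1 and Ifnar2 receptor, whose kinases Jak1 and Tyk2 activate factors that include Stat2. Stat2 acts with Irf9 at the interferon-stimulated response element (ISRE). Interferon gamma binds Ifngr1 and Ifngr2 and acts through Jak1 and Jak2, and the genes it induces often carry a gamma-activated site (GAS). The induced genes restrict viruses, raise the number of nucleic acid sensors in the cell, and adjust antigen presentation. In brain, microglia, astrocytes, endothelium, neurons and blood leukocytes can all carry such a response.

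At 24 h the interferon response genes stood higher in PMCAO brain than in sham brain, while at 6 h no member passed the test in either direction. Of the 30 members tested, 19 were higher and 0 lower at 24 h by limma's moderated test with Benjamini-Hochberg adjustment over all genes, at an adjusted p under 0.05. Over all genes tested, 7.84% were called higher and 4.52% lower at that time. The median log2 ratio of PMCAO over sham was 0.53 over the members, with a range of 0.07 to 1.39, against 0.00 over all genes tested. Rsad2, an antiviral radical SAM enzyme, Ifitm3, a membrane protein that blocks virus entry, and Gbp2, a guanylate-binding protein, were the 3 members at 2-fold or more. Both arrays gave a ratio above 0 for 29 of the 30 members at 24 h, as they did for 31% of all genes. Both PMCAO levels lay above both sham levels for 28 members, and for 28.8% of all genes. Ifi44 and Ifih1 were the 2 whose groups overlapped. The count of 19 was 0 with median centring in place of loess, where only 13 of all genes were called higher (1499 with loess) and the type I and gamma-induced medians were 0.47 and 0.51 (0.52 and 0.58 with loess). It was 12 with either deposited ratio, and 16 to 26 under the other alternatives run. Of the 19, 10 lost the call with median centring alone among those of the 14 alternatives that tested them. Oasl1, 1 of these 10, was tested in 13. It was left out where both channels of all 4 arrays had to be well above background. Trim25 lost it in 5 alternatives, and Ifit3 and Stat2 in 6, which include a fit of the 24 h arrays alone.

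**Figure D1:**
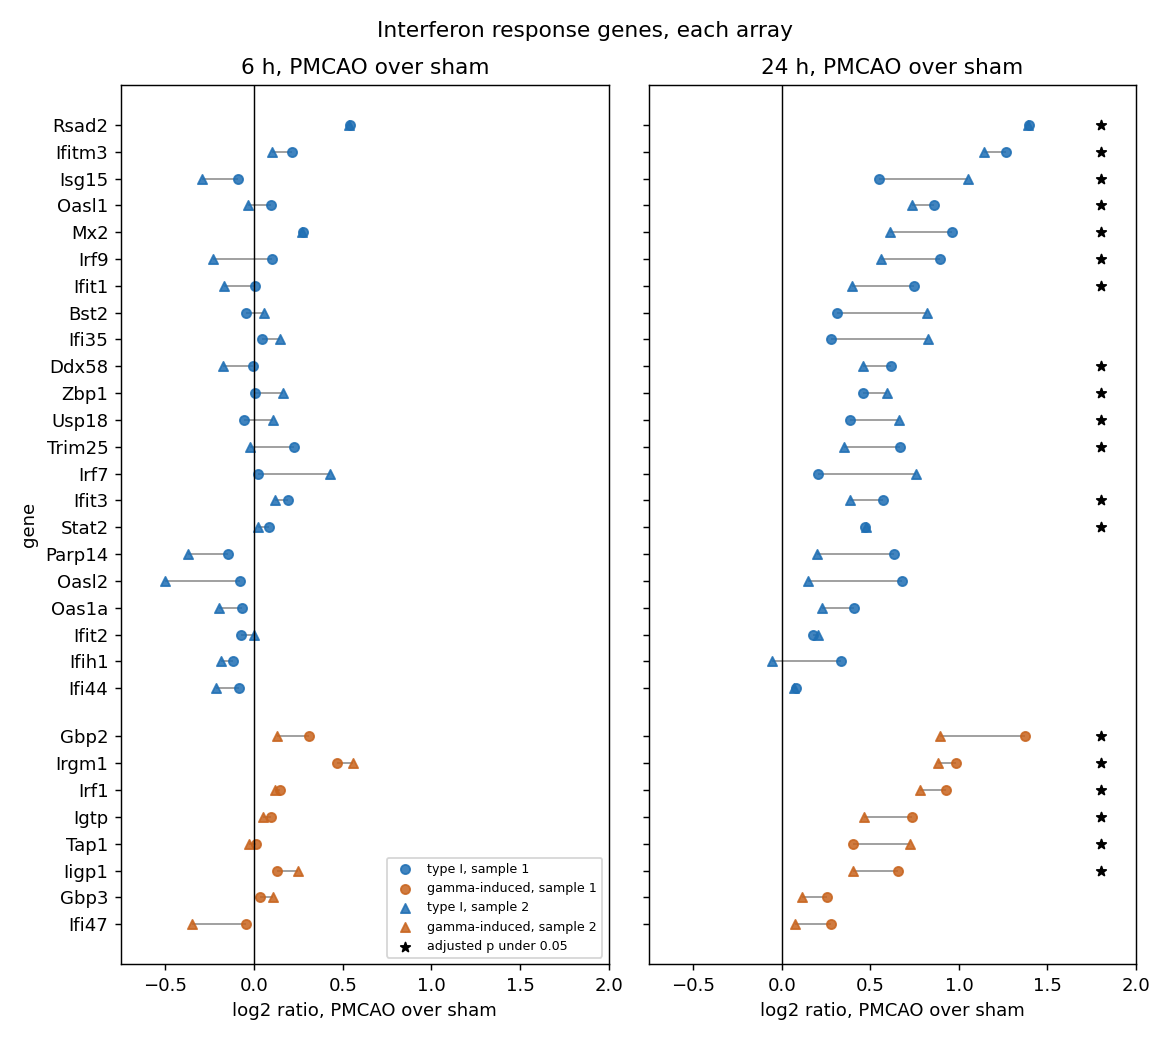
Log2 ratio of PMCAO over sham (x axis) for each tested interferon response gene (y axis) at 6 h (left) and 24 h (right). Circles are sample 1 and triangles sample 2, joined by a grey line, with type I members in blue and gamma-induced members in orange; stars mark an adjusted p under 0.05. At 24 h the points lie right of 0 for every member on both arrays except Ifih1 on sample 2, and 19 members carry a star.

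At 6 h the members' ratios lay on both sides of 0, with a median of 0.04 and a range of -0.29 to 0.54. Of 30 members, 0 were higher and 0 lower in limma, against 0.816% and 0.0366% of all genes. At an unadjusted p under 0.05 there were 3 higher members, Rsad2, Irgm1 and Mx2, and 0 lower, where 6.16% and 2.58% of all genes passed. Both arrays were above 0 for 14 members (28.4% of all genes) and below 0 for 8 members (28% of all genes). Rsad2 stood at 0.54 ± 0.08 (SE, n = 2 arrays) with an adjusted p of 0.0626 in limma, and Irgm1 at 0.51 ± 0.08 with an adjusted p of 0.0852. With either 24 h array left out, and in a fit of the 6 h arrays alone, these 2 genes passed the test at 6 h.

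Short stretches before the gene start are printed for 8 members to show the sequence elements through which interferon signals are known to act, beside genes whose ratios are given in the paragraphs that follow. RefSeq windows of GRCm38.p6, 300 bases long with 250 before the start, were at hand for 25 members. Capitals mark matches to the ISRE letters (GAAA, any 2 bases, GAAA) or the GAS letters (TTCNNNGAA), each searched on both strands, and neighbouring capitals can be overlapping matches. The coordinates are 1-based on GRCm38.p6, and each stretch ends at the base before the start and reads 5′ to 3′ on the gene's strand. Oasl1 is shown as a member with neither match.
Rsad2 (chr12:26456453-26456602, minus strand): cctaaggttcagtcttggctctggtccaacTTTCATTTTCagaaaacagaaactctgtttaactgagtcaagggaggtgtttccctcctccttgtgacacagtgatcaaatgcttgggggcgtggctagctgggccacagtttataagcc
Isg15 (chr4:156200819-156200928, minus strand): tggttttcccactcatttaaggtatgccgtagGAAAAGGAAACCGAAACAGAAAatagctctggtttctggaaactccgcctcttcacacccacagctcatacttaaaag
Ifit1 (chr19:34640759-34640888, plus strand): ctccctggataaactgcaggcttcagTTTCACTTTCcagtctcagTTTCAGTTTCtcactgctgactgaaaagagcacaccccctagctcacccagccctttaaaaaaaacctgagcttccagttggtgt
Irgm1 (chr11:48871421-48871490, minus strand): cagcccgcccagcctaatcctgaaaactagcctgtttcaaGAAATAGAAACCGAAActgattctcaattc
Gbp2 (chr3:142620563-142620662, plus strand): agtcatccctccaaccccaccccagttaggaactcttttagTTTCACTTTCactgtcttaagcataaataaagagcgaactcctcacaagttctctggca
Igtp (chr11:58199476-58199555, plus strand): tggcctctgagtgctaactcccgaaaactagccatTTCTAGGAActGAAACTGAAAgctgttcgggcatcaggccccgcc
Irf1 (chr11:53769894-53770013, plus strand): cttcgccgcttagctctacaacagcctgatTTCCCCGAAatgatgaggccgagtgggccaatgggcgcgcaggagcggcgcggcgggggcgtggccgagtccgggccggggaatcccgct
Oasl1 (chr5:114923120-114923239, plus strand): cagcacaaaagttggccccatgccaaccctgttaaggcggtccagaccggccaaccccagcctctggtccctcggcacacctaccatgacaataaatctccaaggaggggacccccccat

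The ISRE letters were found in the windows of 14 of the 25 members (56.0%), against 3.99% of 27025 genes with a window. The GAS letters were found in 7 members (28.0%), against 9.55% of genes. Among type I members 10 of 18 windows held the ISRE letters and 5 of 18 the GAS letters, and among gamma-induced members 4 of 7 and 2 of 7. The members are known interferon targets, so these shares describe the set and test nothing. In Isg15, 3 ISRE matches overlapped at positions -78 to -57 from the start, and in Irgm1, 2 overlapped at -30 to -15. Ifit1 held 2 separate matches, Rsad2 1 and Gbp2 1, each on the opposite strand to the gene. Igtp held a GAS and an ISRE match side by side, and Irf1 a GAS match alone. In Bst2 and Ifitm3 an ISRE and a GAS match overlapped. At 24 h, 10 of the 14 members with the ISRE letters were higher, with a median log2 ratio of 0.57. Of the 11 without them, 5 were higher, with a median of 0.51. Oasl1, Irf9, Trim25 and Tap1 were higher at 24 h with neither match in the window. Mx1, Mx2, Usp18, Zbp1, Parp14 and Iigp1 had no entry.

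**Figure D2:**
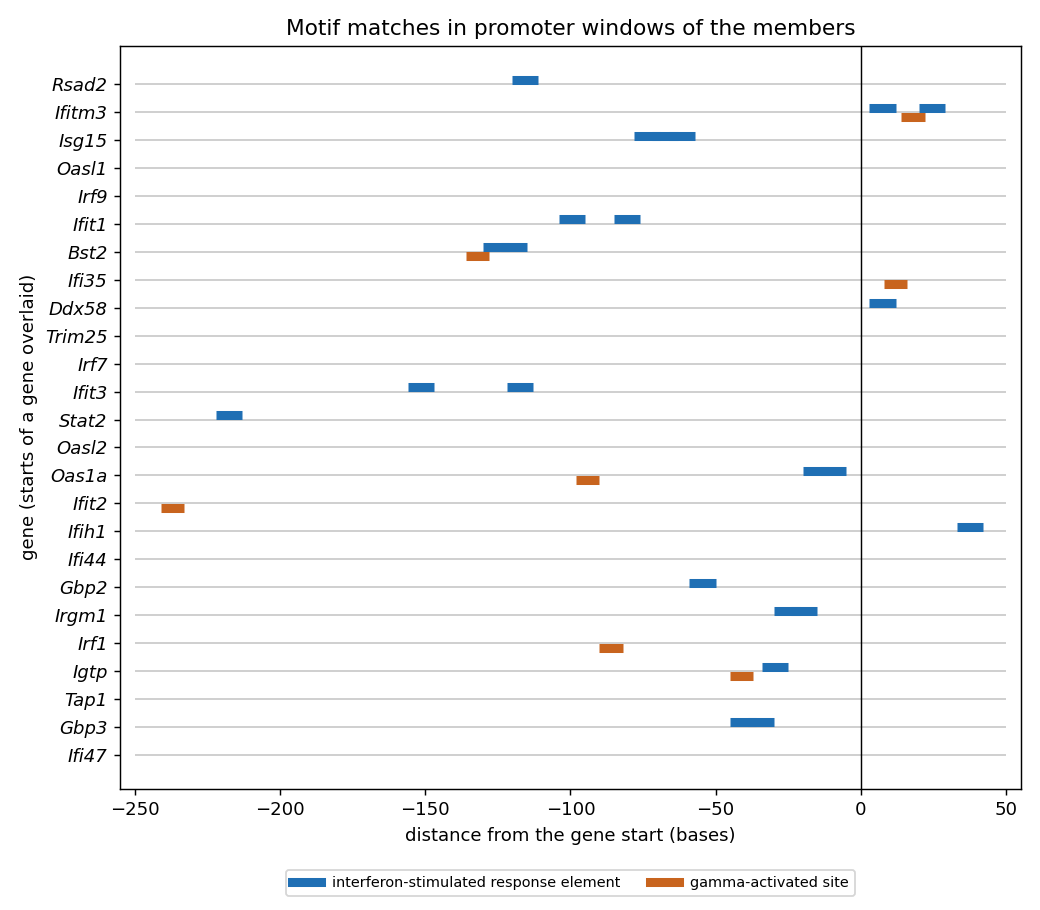
Positions of motif matches in the promoter windows of 25 interferon response genes (y axis), with distance from the gene start in bases on the x axis and negative values before it. Blue bars are ISRE matches in 14 genes and orange bars GAS matches in 7 genes; lines show the window of 300 bases and the vertical line the gene start. The ISRE match of Stat2 lies farthest before the start, at -222 to -213, and those of Ifitm3, Ddx58 and Ifih1 lie after it.

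The antiviral effectors held the members with the highest log2 ratios at 24 h, Rsad2 and Ifitm3, and also the lowest, Ifi44. Of 11 tested, 6 were higher at 24 h, and their log2 ratios ran between 0.07 and 1.39. Rsad2 (viperin) turns CTP into a product that stops viral polymerases; its probe lies at chr12:24278814-24278873 (mm7). Here and below, levels are log2 normalised intensities, ratios are log2 PMCAO over sham, and paired values are samples 1 and 2 of a time. The Rsad2 levels in PMCAO brain were 8.56 and 8.43 at 6 h and 9.18 and 9.08 at 24 h, against 8.02 and 7.89 at 6 h and 7.78 and 7.69 at 24 h in sham brain. The groups did not overlap at either time. Rsad2 was 2.63-fold higher at 24 h (log2 1.39 ± 0.08, adjusted p = 0.000666 in limma). Its 3 probes spanned 0.69 to 1.39 at 24 h and 0.12 to 0.54 at 6 h. Ifitm3 (probe at chr7:137426955-137427014) had levels of 12.36 and 12.32 in PMCAO brain at 24 h, against 11.09 and 11.18 in sham brain. At 6 h its levels were 11.22 and 11.20 in PMCAO brain and 11.01 and 11.10 in sham brain, a much smaller gap. Ifitm3 was 2.30-fold higher at 24 h (adjusted p = 0.00129 in limma).

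Oasl1, of the oligoadenylate synthetase-like proteins, had levels of 7.89 and 7.62 in PMCAO brain at 24 h, against 7.03 and 6.88 in sham brain. It was 1.74-fold higher (adjusted p = 0.0054 in limma), and at 6 h its ratios of 0.09 and -0.04 fell on either side of 0. Oasl1 was dim (mean log2 intensity 7.22), with sham signal well above background on only 1 array at 6 h. Its printed stretch shows no ISRE or GAS letters. Mx2, a gene of the dynamin-like GTPase family, gave 0.28 and 0.27 at 6 h, then 0.96 and 0.61 at 24 h, where it was higher (adjusted p = 0.0115 in limma). Ifit1 and Ifit3 belong to proteins that hold foreign RNA back from translation. Ifit1, with 2 ISRE matches in its stretch, stood at 0.01 and -0.17 (6 h) and at 0.75 and 0.40 (24 h) (adjusted p = 0.0338 in limma). Ifit3 gave 0.19 and 0.12 at 6 h, then 0.57 and 0.39 at 24 h (adjusted p = 0.0276 in limma). Ifit3 has a near-identical copy in mouse, which these probes may not tell apart, and its second probe gave 0.45 at 24 h.

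The other effectors did not pass at 24 h. Bst2 (tetherin), which holds budding virus at the cell surface, came closest, with ratios of 0.31 and 0.82 and an adjusted p of 0.0536 in limma. Oasl2 had 0.68 and 0.15, Oas1a 0.41 and 0.23, Ifit2 0.18 and 0.21, and Ifi44 0.08 and 0.07. Oas1a belongs to a family of close copies, so its probe may carry signal of others. Mx1 was well above background on 1 of 4 PMCAO arrays, at 24 h, and on 0 of 4 sham arrays, and was not tested.

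Among the transcription factors, 3 of 4 were higher at 24 h. Irf1 is induced strongly by interferon gamma and switches on antigen presentation and GTPase genes. Its levels were 11.97 and 11.88 in PMCAO brain at 24 h, against 11.04 and 11.10 in sham brain, a 1.81-fold difference (adjusted p = 0.00403 in limma). At 6 h the levels were 11.05 and 11.09 in PMCAO brain, against 10.90 and 10.97 in sham brain. The second Irf1 probe gave a smaller log2 ratio of 0.37 at 24 h, beside 0.85 for the one that stands for the gene. Irf9, the DNA-binding partner of Stat2, stood at 0.10 and -0.23 (6 h) and at 0.89 and 0.56 (24 h) (adjusted p = 0.0233 in limma); its second probe gave 0.28. Stat2 gave 0.08 and 0.02 at 6 h, then 0.47 and 0.48 at 24 h (adjusted p = 0.0207 in limma). Irf7, which amplifies interferon alpha production, varied between arrays, at 0.02 and 0.43 (6 h) and at 0.21 and 0.76 (24 h) (adjusted p = 0.127).

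Of the sensors of foreign nucleic acid and their partners, 3 of 4 were higher at 24 h. Ddx58 (RIG-I), a sensor of viral RNA ends, stood at 0.00 and -0.18 (6 h) and at 0.62 and 0.46 (24 h) (adjusted p = 0.0228 in limma). Zbp1, which senses left-handed nucleic acid, gave 0.00 and 0.16 at 6 h, then 0.46 and 0.59 at 24 h (adjusted p = 0.0219 in limma). Trim25, a ubiquitin ligase that acts with RIG-I, stood at 0.22 and -0.02 (6 h) and at 0.67 and 0.35 (24 h) (adjusted p = 0.0474 in limma). For these 3 genes both ratios at 24 h lay above both ratios at 6 h, an order whose share over all genes was not counted. Ifih1 (MDA5), a sensor of long double-stranded RNA, gave -0.12 and -0.19 at 6 h, then 0.33 and -0.06 at 24 h, the only member at 24 h whose arrays disagreed in sign (adjusted p = 0.498 in limma).

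The Isg15 system and other regulators had 2 of 4 members higher at 24 h. Isg15 encodes a ubiquitin-like protein that is attached to other proteins. Its levels were 9.09 and 9.13 in PMCAO brain at 24 h, against 8.54 and 8.08 in sham brain. At 6 h the order was opposite, with 8.39 and 8.23 in PMCAO brain and 8.48 and 8.52 in sham brain (log2 ratio -0.19 ± 0.14, adjusted p = 0.902). The difference at 24 h was 1.74-fold (adjusted p = 0.0226 in limma), and it lost the call in 3 of 14 alternatives, as did Ifit1, Usp18 and Iigp1. The array file places its probe at chr17:44534906-44534965 (mm7), whereas RefSeq has Isg15 on chromosome 4, so its identity rests on the accession. Usp18, which removes Isg15 from proteins and damps the type I receptor, stood at -0.06 and 0.11 (6 h) and at 0.38 and 0.66 (24 h) (adjusted p = 0.0336 in limma). Ifi35 had 0.28 and 0.82 at 24 h and Parp14 0.63 and 0.20, and neither passed (adjusted p of 0.0651 and 0.105 in limma).

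The gamma-induced members include the guanylate-binding proteins and immunity-related GTPases, which attack vacuoles of intracellular pathogens. Of these 6 GTPases, 4 were higher at 24 h. Gbp2 (probe at chr3:142530694-142530753) had levels of 10.36 and 10.17 in PMCAO brain at 24 h, against 8.98 and 9.27 in sham brain, a 2.20-fold difference (adjusted p = 0.00703 in limma). At 6 h its levels were 9.18 and 9.13 in PMCAO brain, against 8.87 and 9.0 in sham brain. Irgm1, a regulator of the other GTPases, had 11.10 and 11.14 in PMCAO brain at 24 h, against 10.12 and 10.26 in sham brain, and was 1.91-fold higher (adjusted p = 0.00296 in limma). It stood apart already at 6 h, with 10.63 and 10.67 in PMCAO brain, against 10.16 and 10.11 in sham brain. Igtp (Irgm3) gave ratios of 0.09 and 0.05 at 6 h, then 0.73 and 0.47 at 24 h (adjusted p = 0.0189 in limma). Iigp1 (Irga6) had 0.13 and 0.25 at 6 h and 0.65 and 0.40 at 24 h (adjusted p = 0.0275 in limma). Gbp3 (0.26 and 0.11 at 24 h) and Ifi47 (0.28 and 0.08) did not pass. Tap1, which carries peptides to MHC class I, gave 0.01 and -0.03 at 6 h, then 0.40 and 0.73 at 24 h (adjusted p = 0.0275 in limma).

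**Figure D3:**
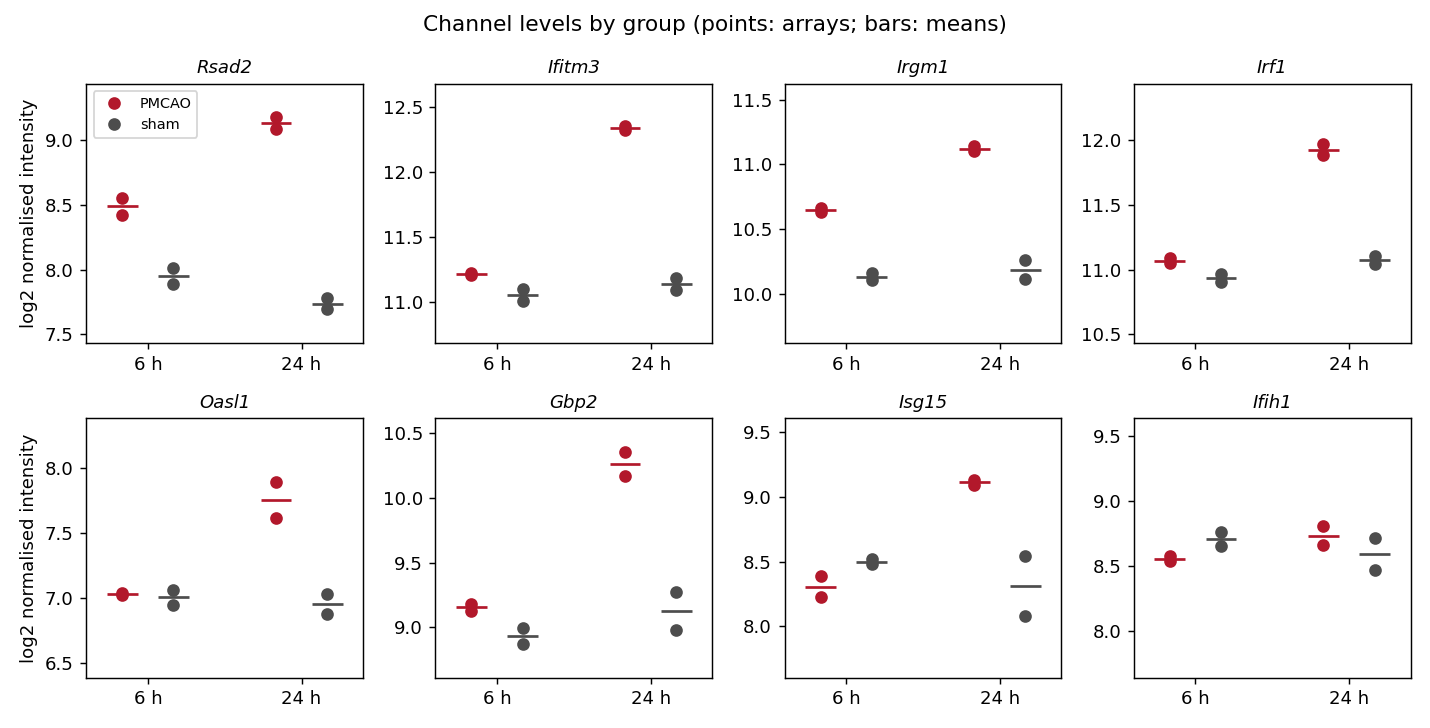
Log2 normalised intensity (y axis, each panel spanning 2 units) of 8 interferon response genes in PMCAO (red, left of each pair) and sham brain (grey, right) at 6 h and 24 h (x axis). Points are the 2 arrays of a group and bars their mean. At 24 h the PMCAO points lie above the sham points in 7 panels, and in the Ifih1 panel the groups overlap.

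Set side by side, type I and gamma-induced members gave like counts. At 24 h, 13 of 22 type I members and 6 of 8 gamma-induced members were higher, with median log2 ratios of 0.52 and 0.58. At 6 h, 0 of 22 and 0 of 8 passed, with medians of 0.02 and 0.10. By array, the medians at 24 h were 0.56 and 0.52 for type I members and 0.69 and 0.60 for gamma-induced members. At 6 h they were 0.01 and -0.01 for type I members and 0.11 and 0.11 for gamma-induced members. The difference between the 2 groups of genes was not tested. The type I median at 6 h fell below 0 without background subtraction, with either deposited ratio, and without sample 1 of 6 h.

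Members whose ratio moved between the times did so mainly in the PMCAO channel. In the separate-channel model, 24 of 30 members were higher in PMCAO brain at 24 h than in PMCAO brain at 6 h (12.7% of all genes) and 0 lower (8.53% of all genes), with a median log2 difference of 0.55. At an unadjusted p under 0.05, 27 members were higher (20.1% of all genes) and 0 lower (14.8% of all genes). In sham brain 1 of 30 was higher at 24 h than at 6 h (2.6% of all genes) and 0 lower (1.67% of all genes), with a median of 0.03. At an unadjusted p under 0.05 in sham brain, 4 members were higher (12.9% of all genes) and 1 lower (9.21% of all genes). The member past the adjusted test was Gbp3, at 0.33 in sham brain beside 0.45 in PMCAO brain. The PMCAO count was 15 without sample 1 of 6 h and 11 without sample 2 of 6 h. In sham brain, 0 members passed without either 6 h array, and 3 were higher and 1 lower without sample 1 of 24 h. Iigp1 was an exception among those higher at 24 h, with 0.10 between the times in PMCAO brain and -0.24 in sham brain, neither past the test (adjusted p of 0.386 and 0.124 in limma).

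The difference between the times was itself tested as the 24 h ratio minus the 6 h ratio. All 30 members had a positive difference, with a median of 0.50. Of all 19127 genes tested, 10132 had a positive difference, with a median of 0.01. The 2 members that passed were Ifitm3 at 1.04 ± 0.12 (adjusted p = 0.0262 in limma) and Rsad2 at 0.86 ± 0.11 (adjusted p = 0.0356 in limma). Over all genes, 1.29% were called higher and 0.298% lower in this difference. At an unadjusted p under 0.05, 22 members were higher and 0 lower, against 7.68% and 6.51% of all genes. Isg15 had a difference of 0.99 ± 0.20 (adjusted p = 0.0897), Gbp2 0.91 ± 0.19 (adjusted p = 0.102) and Irgm1 0.42 ± 0.12 (adjusted p = 0.191) in limma. The count of 2 was 0 without either 6 h array, with median centring and with either deposited ratio. It was 16 without sample 1 of 24 h and 16 without sample 2 of 24 h, fits in which 1564 and 1277 of all genes were called higher, against 246 in the fit of all 4 arrays. A replicate block for sample number, and thus for dye orientation, gave 24 members and 1685 of all genes higher.

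**Figure D4:**
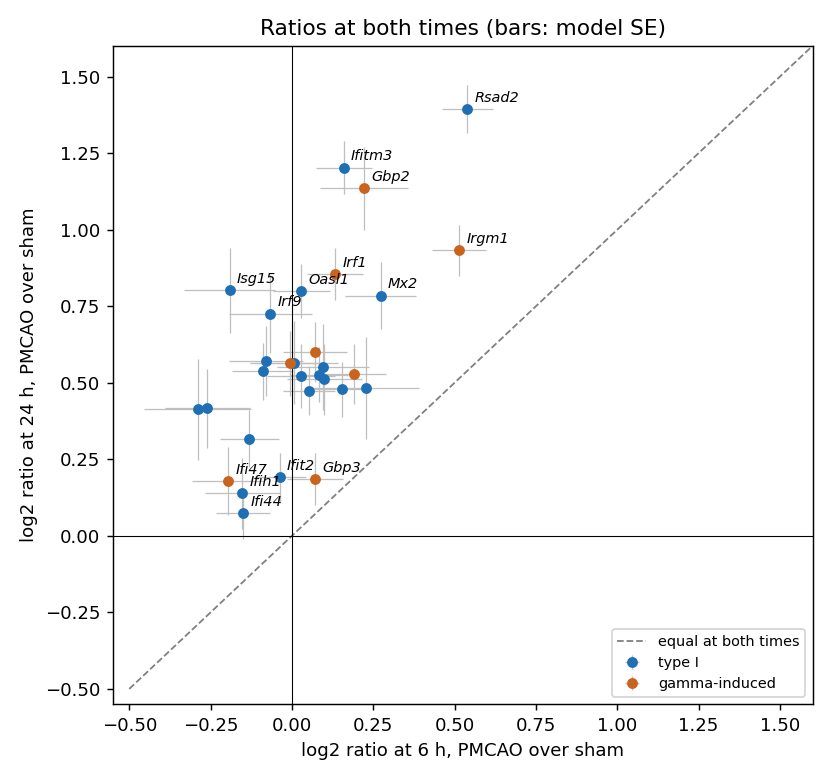
Log2 ratio of PMCAO over sham at 24 h (y axis) against that at 6 h (x axis) for the 30 tested interferon response genes, type I in blue and gamma-induced in orange, with bars for the model's standard error. The dashed line marks equal ratios at both times. All 30 points lie above it, and Rsad2 and Irgm1 lie farthest to the right, at 0.54 and 0.51.

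Of 10 interferon genes listed, 8 were on the array and 1, Ifna1, could be tested, with a log2 ratio of 0.14 ± 0.08 at 24 h (adjusted p = 0.322 in limma). Its signal was near background (mean log2 intensity 6.66). At 24 h Ifna1 was well above background on 1 of 2 PMCAO arrays and 2 of 2 sham arrays, and at 6 h on 0 arrays. Ifnb1 was well above background on 1 of 2 PMCAO arrays at 24 h and on 0 of 2 sham arrays, and Ifng on 0 of 2 PMCAO arrays and 1 of 2 sham arrays. Ifna2, Ifna4, Ifnk, Ifne and Ifnl3 were not well above background on any array, so no level can be set for them. Of 9 receptor chains and kinases, 1 was higher at 24 h (11.1%, beside 7.84% of all genes) and 0 lower. That was Ifnlr1, the interferon lambda receptor chain, with ratios of 1.03 and 0.53 (1.72-fold, adjusted p = 0.0251 in limma). Ifngr1 stood at 0.29 ± 0.08 (adjusted p = 0.0815) and Ifnar2 at 0.36 ± 0.15 (adjusted p = 0.191). Ifnar1, Ifngr2, Il10rb, Jak1, Jak2 and Tyk2 lay between -0.09 and 0.22 at 24 h and did not pass.

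Of 11 signal transducers, regulatory factors and feedback genes tested, 5 were higher at 24 h (45.5%, beside 7.84% of all genes) and 1 at 6 h (9.09%, beside 0.816%), with 0 lower. Socs3, a feedback inhibitor of Jak kinases induced by interleukin 6 and by interferons, stood at 1.48 and 1.72 (6 h) and at 2.27 and 2.31 (24 h) (adjusted p of 0.00567 and 0.000245 in limma). Stat3, which carries interleukin 6 family signals, gave 0.55 and 0.62 at 6 h, then 1.07 and 1.09 at 24 h (adjusted p = 0.00147 at 24 h). Ptpn6 and Irf5 were 1.48-fold and 1.42-fold higher at 24 h. Of 11 other sensors and adaptors, 4 were higher at 24 h (36.4%). They were Myd88 (1.05 and 1.09), Tlr7 (0.82 and 0.65), Cgas (0.65 and 0.41) and Ticam1 (0.36 and 0.69). Tlr7 was about as high at 6 h, at 0.60 and 0.89 (adjusted p = 0.0595 in limma). Myd88, Cgas and Ticam1 had log2 ratios of 0.22, 0.03 and 0.13 at 6 h.

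Of 29 other interferon-stimulated genes tested, 12 were higher at 24 h (41.4%, beside 7.84% of all genes) and 0 lower, with a median log2 ratio of 0.32, and 0 passed at 6 h. Cxcl10, a chemokine for T cells, stood at 0.67 and 0.64 (6 h) and at 3.33 and 2.61 (24 h) (7.84-fold, adjusted p = 0.000707 in limma). Ifi204, a DNA sensor, Slfn2, a Schlafen protein, and Plscr1, a phospholipid scramblase, were 2.49-fold, 2.02-fold and 1.99-fold higher at 24 h. Of 15 other gamma-induced genes tested, 4 were higher at 24 h (26.7%) and 0 lower, with a median of 0.31. They were Ifi30, a lysosomal thiol reductase, Cd274 (PD-L1), Psmb8, an immunoproteasome subunit, and Gbp6, at 1.71-fold, 1.71-fold, 1.47-fold and 1.29-fold.

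Markers of other cells moved beside the members. Over all genes tested, 7.84% were higher and 4.52% lower at 24 h, and 0.816% were higher at 6 h. Of 13 neutrophil and monocyte markers tested (16 listed), 10 were higher at 24 h and 3 at 6 h, with a median log2 ratio of 1.07 at 24 h. Their summed intensity at 24 h was 80770 and 93117 in PMCAO brain, against 8938 and 10335 in sham brain. At 6 h it was 19987 and 20658 in PMCAO brain, against 9663 and 9538 in sham brain. S100a9, a calcium-binding protein of neutrophils, made up most of the PMCAO sums at 24 h, and the other 12 markers summed to 26787 and 25257 in PMCAO brain, against 8041 and 9084 in sham brain. Of that list, Ly6g was not found among the array's names, Elane was well above background in no channel, and Camp in no group on both arrays. Cxcr2, Mmp8 and Ngp, counted among the 10 higher at 24 h, were well above background on 0 sham arrays. They entered the test through PMCAO brain alone, so their direction was largely set by the filter. Of 11 microglia markers, 5 were lower and 0 higher at 24 h, and their sum was 34625 and 32136 in PMCAO brain, against 37690 and 40507 in sham brain. Of 6 endothelial markers, 3 were higher and 0 lower at 24 h. A ratio above 0 was seen for 5 of the 6, and Tek stood at -0.52 (adjusted p = 0.0519 in limma). The endothelial sums were 45222 and 49951 in PMCAO brain, against 36414 and 32916 in sham brain. Of 5 astrocyte markers, 2 were higher at 24 h, Aldh1l1 at 0.54 and Gjb6 at 0.41 (adjusted p of 0.0238 and 0.0356 in limma), and 0 lower. The astrocyte sums were 131279 and 103251 in PMCAO brain, against 121400 and 142463 in sham brain, and overlapped. Of 5 neuron and 5 oligodendrocyte markers, 0 passed at either time, and at an unadjusted p under 0.05 the count at 24 h was 0 and 1. Of 12 lymphocyte and natural killer cell markers, 5 could be tested and 0 passed at either time. The members' own summed intensity at 24 h was 19770 and 19254 in PMCAO brain, against 12048 and 12323 in sham brain, for type I members. For gamma-induced members it was 12609 and 12132 in PMCAO brain, against 7113 and 7864 in sham brain. In tissue RNA, more cells of a type and more RNA per cell cannot be told apart, and the part of these cells in the members' values was not tested.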

How the data were processed

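Gene expression was measured on 4 two-colour arrays, 2 per time. The authors' deposited scanner tables give spot intensity (mean signal, background median, processed signal) and a log10 ratio from Agilent Feature Extraction 9.5.3.1, as per the file headers. A series table, also deposited, holds 1 further ratio of processed signals per probe, whose sign and centring are unknown. Coordinates of probes refer to mm7, per the file headers.

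Background was corrected by normexp with offset 50, and each array was normalised by loess with controls weighted 0 (limma 3.58.1, R 4.3.3). Spots marked as outliers, 112 to 142 an array, were dropped, and the 0 to 2 saturated ones were kept. A gene was represented by its brightest probe. Log2 ratios were oriented as PMCAO over sham. One model over the 4 arrays estimated both times and their difference with no dye term (2 residual and 3.53 prior degrees of freedom). Levels are the channel values of each array after Aquantile. A separate-channel model of these values gave the comparisons between times within PMCAO and within sham (intraspot correlation -0.411). Errors are model standard errors, and Benjamini-Hochberg adjustment ran over all genes tested, with 0.05 as threshold. The number of arrays limits the precision. The fits were tested on simulated data.

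Names came from a RefSeq table (GRCm38.p6), by accession for 22951 probes, by symbol for 6659 and by older symbol for 3109, and 8455 kept their name in the files. The members, lists and tests were chosen with earlier results of these data known. All members were accounted for. Of the other lists, up to 4 genes with the smallest p at 24 h and up to 2 at 6 h, among those past the test, were named, with all ligands and receptors. Motifs and plots used Python 3.11.15 and matplotlib 3.10.9. Alternatives tried were background correction, normalisation, deposited ratios, dim-probe filter, probe averaging, outlier spots, fits per time, the sample number as a block, and each array left out.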

Additional observations from a re-analysis of the deposited data

Results flagged for a closer look

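The ratio of PMCAO over sham differed between the times, by limma's test of the difference itself, for 2 interferon response genes. Ifitm3 was 1.04 (log2) higher at 24 h than at 6 h, with PMCAO brain 1.13 higher at 24 h and sham brain 0.08. Rsad2 was 0.86 higher at 24 h than at 6 h, with 0.64 in PMCAO brain and -0.21 in sham brain, of which the sham value did not pass the test (adjusted p = 0.235 in limma). Its PMCAO level was already above sham at 6 h on both arrays. Both genes lost the call without either 6 h array, with median centring and with either deposited ratio, and Rsad2 also without background subtraction. Both kept it without either 24 h array.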

How the results depend on the processing

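The count of members higher at 24 h, 19 in the report, was 0 with median centring in place of loess, and 12 both with the deposited log ratio and with the deposited series table. It ran from 16 to 26 under the other alternatives and from 19 to 22 with an array left out. All 12 were among the 19. No member was lower at 24 h in any alternative. At 6 h the count was 2 without either 24 h array (range 0 to 2 with an array left out), 2 in a fit of the 6 h arrays alone, and 4 with the sample number as a replicate block (Rsad2 and Irgm1 higher, Oasl2 and Parp14 lower). The block gave 26 at 24 h and 24 in the difference. Deviations of same-numbered arrays correlated at 0.718 across 19117 genes, but with 2 pairs, and with the number also marking dye orientation, pairing is not established. The difference count, 2, was 1 without background subtraction, 0 with median centring, 0 with the deposited log ratio, 0 with the deposited series table, and 0 to 16 with an array left out. With an array left out, the count in PMCAO between the times ran from 11 to 25 and that in sham, both directions together, from 0 to 4 (the 4 are 3 higher and 1 lower). The sham count was also 2 with quantile normalisation and 0 with no filter on dim probes.

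The type I median at 6 h, 0.017 in the report's setting, was -0.014 without background subtraction, -0.053 with the deposited log ratio, -0.055 with the series table, and -0.011 to 0.017 with an array left out. The gamma-induced median at 6 h, 0.10, was 0.095 without background subtraction, 0.12 with median centring, 0.080 with the deposited log ratio, 0.077 with the series table, 0.092 with the mean of probes, and 0.10 to 0.11 with an array left out. At 24 h the type I median, 0.52, was 0.45 without background subtraction, 0.47 with median centring, 0.57 with the deposited log ratio, 0.56 with the series table, and 0.52 to 0.56 with an array left out. The gamma-induced median at 24 h, 0.58, was 0.51 with median centring, 0.70 with either deposited ratio, and 0.58 to 0.69 with an array left out. The cause of these shifts was not tested.

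Of 1227 single values over 14 alternatives, 1076 kept their direction and side of the threshold, and 17 changed sign. At 6 h, Usp18 was -0.020 without background subtraction, -0.082 with the deposited log ratio and -0.078 with the series table, where Bst2 was -0.0076, -0.024 and -0.031. Tap1 was 0.030 with median centring. With an array left out, the 6 h values ran from -0.17 to 0.0075 for Ifit1, -0.075 to 0.0011 for Ifit2, -0.23 to 0.099 for Irf9, -0.036 to 0.093 for Oasl1, -0.056 to 0.11 for Usp18, -0.043 to 0.057 for Bst2, -0.023 to 0.22 for Trim25 and -0.026 to 0.011 for Tap1. The 24 h value of Ifih1 ran from -0.055 to 0.33, and the difference of Irf7 from -0.019 to 0.53. With an array left out, a dye effect no longer cancels at that time. Signals near background limit Mx1 and most interferon genes. Among members higher at 24 h, Oasl1, Tap1 and Zbp1 were also dim. Their mean log2 intensities were 7.22, 7.01 and 7.27, against 6.56 for Mx1. Over the alternatives their 24 h ratios ran from 0.59 to 1.70, 0.39 to 1.19 and 0.40 to 1.07.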
